A study of Canis lupus familiaris with 32 samples.

Results

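Adult control hip joint capsule was compared with adult control teres ligament. These are 8 of the 32 libraries of a study of hip soft tissues in dogs, in which hip dysplasia arises naturally. The 8 were taken by their titles and tissue labels: 5 capsules and 3 ligaments, from 7 of the 25 dogs. One dog gave both a capsule (replicate 3) and a ligament (replicate 1), and the other 6 dogs gave 1 library each. All 7 dogs carry the labels control and adult. Breed, sex and age in years of the control dogs, and the part of the capsule or ligament taken, do not appear in the labels. No treatment or allele is named for any group. The labels' protocols give Trizol extraction of total RNA, subtraction of ribosomal RNA and directional libraries.

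For comparison the report uses dogs under 1 month of age (6 capsules and 4 ligaments) and affected dogs aged 4 months, of which 3 gave both tissues. These dogs gave no control library. The interaction with disease also draws on 1 affected adult capsule and 4 affected adult ligaments, and levels are also given for 3 embryonic hips.

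The hip capsule is a fibrous sleeve that closes the joint, with a synovial membrane on its inner face. The teres ligament, also called the ligament of the femoral head, lies inside the joint and links the femoral head to the acetabulum. It is a band of dense collagenous tissue that is itself covered by synovium. Fibroblasts of both tissues make collagen-rich matrix, and the synovial lining makes and clears joint fluid.

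The table names its genes only by Ensembl gene ID, and 0 of the 24580 IDs matched the reference table used for names. The labelled tissues could therefore not be checked against marker genes, and the lists of ligament, matrix, cartilage, muscle, fat and other markers could not be applied. Genes below are given by ID, level and behaviour in other dogs, with no function. Each value is per bulk tissue sample, in which fewer cells of a type and less RNA per cell cannot be told apart.

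The capsule libraries held 2857235 to 5098801 fragments and the ligament libraries 4770687 to 5492629. Of the 8 control libraries, ligament replicate 3 stood apart from its group. Its log2 levels correlated at a mean r of 0.922 with the 5 capsules and 0.916 with the other 2 ligaments. Ligament replicates 1 and 2 correlated at 0.941 with each other and at a mean of 0.891 and 0.883 with the capsules. Among the capsules, replicate 3 had the lowest mean correlation with the others, 0.919. The libraries of the dog that gave both tissues correlated at 0.904, inside the range of all 15 pairs between tissues, 0.863 to 0.942. This was the highest value of capsule 3 with any ligament (0.873 and 0.884 with the others), and the deviations of the 2 libraries from their group means correlated at 0.425 across genes. Results that depend on ligament replicate 3 are given with and without it.

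**Figure D1:**
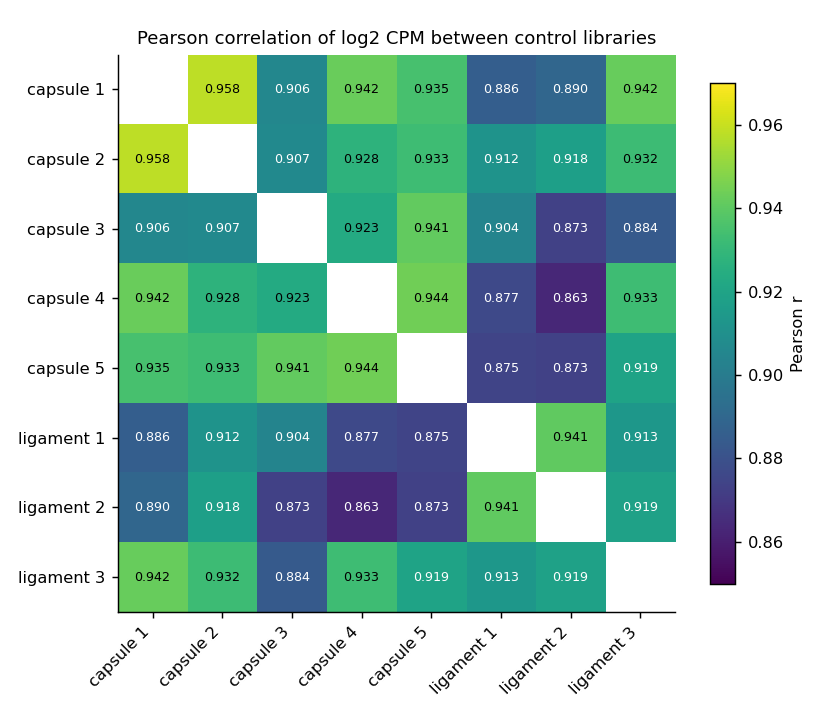
Pearson correlation of log2 CPM over the genes tested for each pair of the 8 control libraries, with the value printed in each square. Capsules 1 and 2 are the closest pair at 0.958, and ligament 3 is as close to capsule 1 (0.942) as ligaments 1 and 2 are to each other (0.941).

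The direct comparison asked which genes differ between the tissues in adult control hips. It called no gene: with edgeR, 0 of 12835 genes tested (0%) had an adjusted p under 0.05, and the smallest adjusted p was 0.155. At an unadjusted p under 0.05, 875 genes (6.82%) were higher in capsule and 688 (5.36%) were lower. In 446 genes (3.47%) all 5 capsules lay above all 3 ligaments, and in 352 (2.74%) all 5 lay below. DESeq2 called 259 of 14704 genes (1.76%), 200 higher and 59 lower. Without ligament replicate 3, edgeR called 33 of 13149 (0.251%), 19 higher and 14 lower. Of those 33 genes, 31 were also tested with ligament replicate 3 included. In 24 of these the level of that library was nearer to the capsule mean than to the mean of the other ligaments. None of the 33 was called with it included, which favours genes where it departs from the other ligaments. The 24 are thus a description. A fit that took the spread from all groups of the series called 103 genes higher in capsule (0.67% of 15363) and 43 lower (0.28%).

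Among the genes tested, large differences ran mostly one way. Among genes whose groups did not overlap, 233 (1.82% of genes tested) were at least 2-fold higher in capsule and 59 (0.46%) in ligament. At 4-fold the counts were 116 and 14 (0.904% and 0.109%), and at 16-fold 78 and 3 (0.608% and 0.0234%). With fewer ligaments than capsules, the filter for testing can let capsule genes pass more readily than ligament genes. Of the genes tested, 10 had no fragment in any ligament and 0 had none in any capsule. The counts by fold are thus a description, and the part of the filter in them was not tested. The 78 genes together held between 0.384% and 10.98% of the fragments of a capsule, and between 0.0122% and 0.0233% of those of a ligament. The 3 ligament genes held 0.0028% to 0.0775% of a ligament library. Of the 836 genes with a log2 difference of at least 1 in either direction, 544 had overlapping groups.

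With no gene called, the 2 genes with the lowest p in each direction are described by their values, taken among the 721 genes with no overlap and a mean of at least 5 CPM (the TMM-scaled relative fragment count) in the higher tissue. ENSCAFG00000015412 stood at 32.2, 23.3, 19.4, 38.6 and 13.7 CPM in capsules 1 to 5 and at 6.05, 2.48 and 5.25 CPM in ligaments 1 to 3. The lowest capsule was above the highest ligament, and ligament replicate 3 was as low as its group. The means were 25.4 ± 9.95 CPM (SD, n = 5) and 4.60 ± 1.87 CPM (n = 3), a log2 difference of 2.47 (SE 0.42, edgeR adjusted p = 0.155).

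ENSCAFG00000024064 was nearly absent from the control ligaments. It stood at 3.46, 3.06, 6.97, 13.2 and 5.62 CPM in the capsules and at 0.418, 0.331 and 0 CPM in the ligaments. The groups did not overlap, and all 3 ligaments together held 4 fragments of this gene against 135 in the capsules. The log2 difference was 4.52 (SE 0.78, edgeR adjusted p = 0.155), and the pooled fragment ratio was 23.7 (95% interval 9.03 to 88.1, counting error only). In young dogs the gene was barely present in either tissue, with 7 fragments in 6 capsules and 8 in 4 ligaments. The 3 capsules and 3 ligaments of the dogs aged 4 months held 15 and 23 fragments.

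In the other direction, ENSCAFG00000002234 stood at 0.692, 1.02, 0.845, 2.64 and 1.67 CPM in the capsules and at 7.52, 12.9 and 14.7 CPM in the ligaments. Here ligament replicate 3 was the highest of the 8 libraries. The log2 difference was -3.06 (SE 0.43, edgeR adjusted p = 0.155), from means of 1.37 ± 0.80 CPM (SD, n = 5) and 11.7 ± 3.74 CPM (n = 3). The same gene was called higher in ligament in young dogs, at 2.29 ± 1.62 CPM in capsule (SD, n = 6) and 20.1 ± 6.80 CPM in ligament (n = 4), with a log2 difference of -3.13 (SE 0.40, edgeR adjusted p = 0.0019). Within the dogs aged 4 months the difference was -1.30 (SE 0.46, adjusted p = 0.346).

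ENSCAFG00000007857 stood at 2.42, 1.02, 3.38, 1.85 and 1.25 CPM in the capsules and at 16.3, 14.6 and 7.56 CPM in the ligaments. The lowest ligament was replicate 3, still above every capsule. The log2 difference was -2.69 (SE 0.42, edgeR adjusted p = 0.155). In young dogs it was called at -2.55 (SE 0.39, edgeR adjusted p = 0.0027), and within the dogs aged 4 months it was -2.38 (SE 0.50, adjusted p = 0.0603). Its FPKM averaged 123 in control ligaments and 19.4 in control capsules. The tissue differences of both ligament genes in controls were close to those in young dogs, with interaction terms of 0.06 (SE 0.80) for ENSCAFG00000002234 and -0.14 (SE 0.61) for ENSCAFG00000007857.

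**Figure D2:**
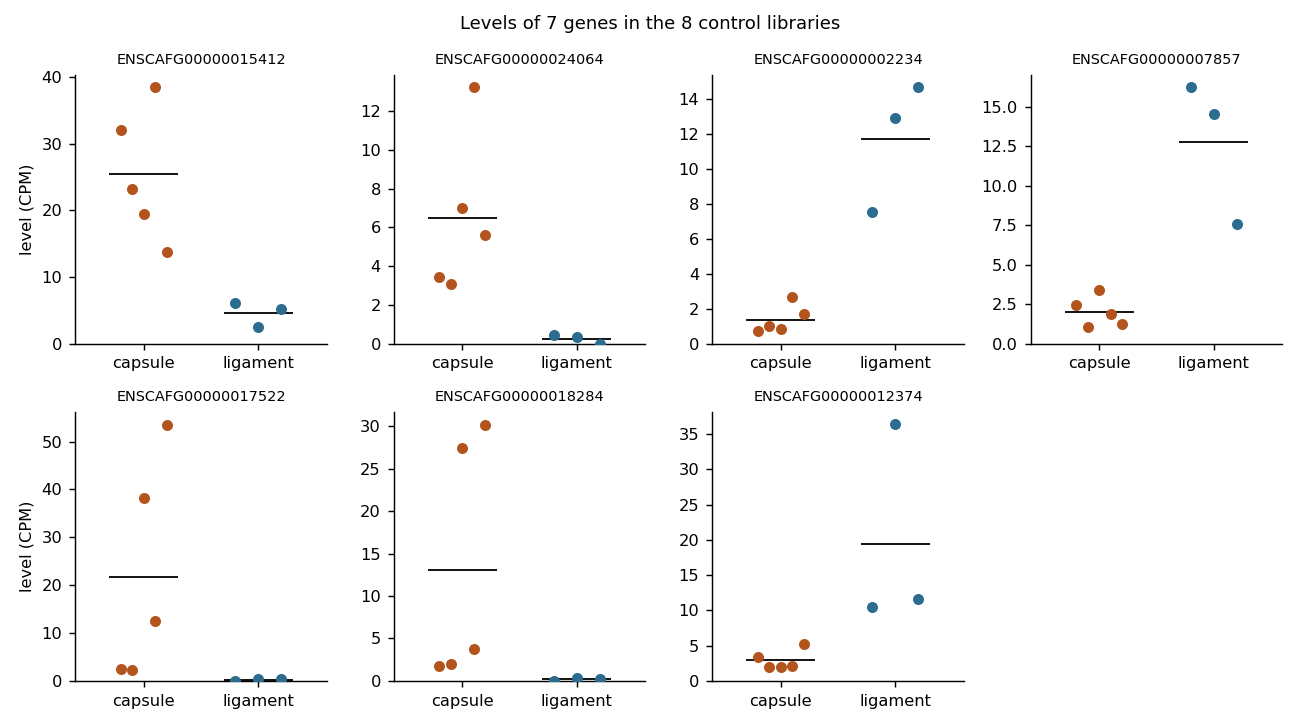
Level in CPM (linear axis from 0) of 7 genes in the 5 control capsules and 3 control ligaments, with each point a library in replicate order and the line the group mean. The upper 4 were chosen by lowest p in the controls and the lower 3 by their difference in young dogs and at 4 months; in all 7 the groups do not overlap, and in ENSCAFG00000017522 and ENSCAFG00000018284 capsules 3 and 5 stand above the other capsules.

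The young dogs and the dogs aged 4 months gave lists of tissue genes in which no control library had a part. The 10 young libraries came from 7 dogs, of which 3 gave both tissues, and they entered the fit as independent. In young dogs edgeR called 490 genes higher in capsule (3.84% of 12773) and 288 lower (2.25%), 778 in all, and limma voom with the dog as a random effect called 1505. Within the dogs aged 4 months, with the dog as a block, it called 161 higher (1.23% of 13076) and 10 lower (0.0765%). The lists shared 125 capsule genes, 25.5% of the young list and 77.6% of the 4-month list, and 1 ligament gene, and 0 genes were called in opposite directions. These genes were followed in the controls without a filter on low values, so that a gene absent from ligament could not drop out or pass for that reason.

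All 125 shared capsule genes had a higher mean in control capsule, where 52.6% of the 18273 genes with a fragment in any control library did. In 92 of the 125 (73.6%) all capsules were above all ligaments, against 2.88% of the 18273. In 17 of the 125 no control ligament held a fragment, against 1072 of the 18273. Of the 106 that passed the filter for testing, 100 had an unadjusted p under 0.05 and were higher in capsule (against 6.82% of all genes tested), their median log2 difference was 5.01, and none was called in the edgeR fit, where their smallest adjusted p was 0.188. DESeq2 called 102 of the 125 among its 200 capsule-high genes, and 72 of the 78 genes separated by 16-fold or more belong to the 125. The count with a higher mean was 124 without ligament replicate 3 and 125 without both libraries of the shared dog, with 97 and 98 genes separated.

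Their level varied widely among the capsules. The 125 genes together took 0.492%, 0.690%, 9.16%, 1.17% and 11.3% of the fragments of capsules 1 to 5, and 0.136%, 0.0946% and 0.0932% of those of ligaments 1 to 3. Capsules 3 and 5 were high and capsules 1 and 2 low, the lowest capsule being 3.62 times the highest ligament and the highest capsule 23.0 times the lowest. The order was shared across the genes: capsule 3 was among the 2 highest capsules in 120 of the 125 genes and capsule 5 in 119, while capsule 1 was the lowest in 65. One gene supplied 63.4% of these fragments in the capsules. Without it the shares were 0.268%, 0.341%, 3.70%, 0.565% and 3.56% in the capsules and 0.134%, 0.0861% and 0.0920% in the ligaments. Almost every gene was present in every capsule, with 123 to 125 of the 125 detected per library, against 86 to 96 per ligament.

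The same genes were low in every ligament of the series. Their share was 0.0431% to 0.0658% in young ligaments, 0.0706% to 0.0884% in ligaments of the dogs aged 4 months and 0.0770% to 0.102% in affected adult ligaments. Young capsules spanned 1.92% to 18.5%, and capsules of the dogs aged 4 months 4.11% to 5.80%. The young and 4-month libraries chose the genes, so their values are a description. The affected adult capsule stood at 2.11% and the embryonic hips at 5.44% to 5.91%, and neither these nor the affected adult ligaments chose the list. Control capsules 1, 2 and 4 were thus below every other capsule of the series, and capsules 3 and 5 lay within the span of the young capsules.

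**Figure D3:**
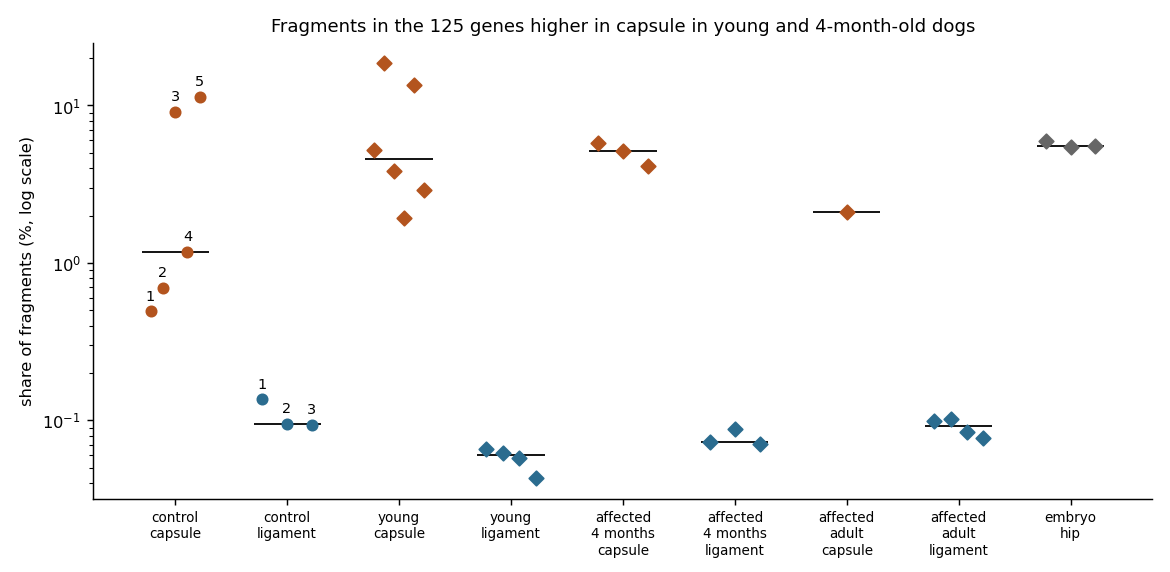
Share of each library's fragments (%, log axis) in the 125 genes called higher in capsule in both young dogs and dogs aged 4 months, with the median of each group as a line and control libraries numbered by replicate. Control capsules run from 0.492% to 11.3% and control ligaments from 0.0932% to 0.136%; the young and 4-month groups chose the genes.

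Of the 125, the 2 with the largest difference in young dogs are shown with their values. ENSCAFG00000017522 stood at 2.42, 2.24, 38.2, 12.4 and 53.5 CPM in capsules 1 to 5 and at 0, 0.331 and 0.420 CPM in the ligaments. The groups did not overlap, but capsules 3 and 5 were far above capsules 1 and 2. The means were 21.8 ± 23.0 CPM (SD, n = 5) and 0.250 ± 0.221 CPM (n = 3), a log2 difference of 6.28 (SE 1.57, edgeR adjusted p = 0.258). In young dogs the gene was far more abundant, at 602 to 6798 CPM in the capsules against 0.209 to 0.911 CPM in the ligaments. The interaction between controls and young dogs was -5.99 on the log2 scale (SE 3.35, edgeR adjusted p = 0.398).

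ENSCAFG00000018284 stood at 1.73, 2.04, 27.5, 3.70 and 30.2 CPM in the capsules and at 0, 0.331 and 0.210 CPM in the ligaments. Capsules 3 and 5 were again the high ones. The capsules held 304 fragments and the ligaments 3, a pooled ratio of 71.1 (95% interval 24.1 to 347, counting error only). In young dogs 2057 fragments fell in the capsules and 0 in the 4 ligaments. Against a floor of 3 fragments over the group, the pooled ratio was 589. Its lower 95% limit was 478 (counting error only).

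The 1 ligament gene shared by the young and 4-month lists, ENSCAFG00000012374, stood at 3.46, 2.04, 1.90, 2.12 and 5.21 CPM in the capsules and at 10.4, 36.4 and 11.6 CPM in the ligaments. All 3 ligaments were above all capsules, with ligament replicate 2 the highest. The means were 2.94 ± 1.41 CPM (SD, n = 5) and 19.5 ± 14.7 CPM (n = 3), a log2 difference of -2.72 (SE 0.48, edgeR adjusted p = 0.155). The difference was -1.74 (SE 0.31, edgeR adjusted p = 0.0054) in young dogs and -2.42 (SE 0.39, edgeR adjusted p = 0.012) within the dogs aged 4 months.

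Outside these genes, the tissue genes of young dogs were smaller and less regular in controls. Of the 365 young capsule genes not called at 4 months, 288 (78.9%) had a higher mean in control capsule and 45 (12.3%) were separated. The 299 of them that were tested had a median log2 difference of 0.38, against 0.00 for all genes tested. Of all 490 young capsule genes, 413 (84.3%) had a higher mean in control capsule, or 382 (78.0%) without capsule replicate 3. Of the 288 young ligament genes, 173 (60.1%) had a higher mean in control ligament, where 47.4% of all genes with a fragment did. In 29 of them (10.1%) all capsules lay below all ligaments, against 2.18% of all genes, and in 2 the order was the opposite. Their median log2 difference among the 276 tested was -0.09, and without ligament replicate 3 the count fell to 138 (47.9%, against 43.9% of all genes). Without ligament replicate 2 it was 198 (68.8%).

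**Figure D4:**
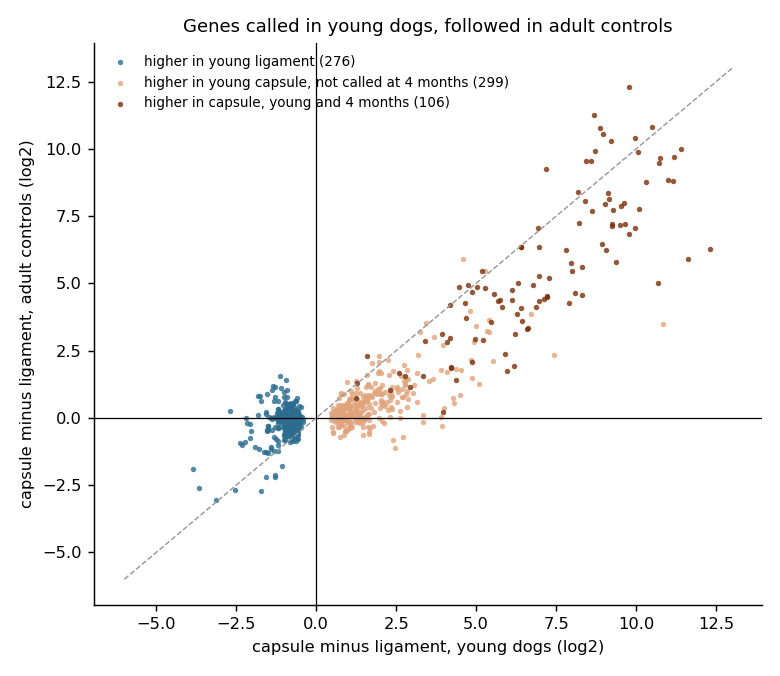
Log2 difference between capsule and ligament in young dogs (x axis) and in adult controls (y axis) for the 681 genes called in young dogs and tested in controls, with equality dashed; the x axis chose the genes. The genes also called at 4 months (dark) reach a median of 5.01 in controls, and the young ligament genes (blue) centre at -0.09.

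Per library, a tissue index was taken as the mean log2 CPM of the young capsule genes minus that of the young ligament genes. It stood at -2.03, -2.01, -0.175, -1.74 and -0.938 in capsules 1 to 5 and at -2.77, -2.77 and -3.22 in ligaments 1 to 3. The groups did not overlap, and ligament replicate 3 was the farthest from the capsules. The means differed by 1.54 (exact permutation p = 0.0357, two-sided, adjusted over 3 tests 0.0536; the smallest p for 5 against 3 libraries is 0.0179). Capsules 3 and 5 were highest on the capsule side of the index, 5.29 and 5.05 against 3.90 to 4.18 in the other capsules and 3.03 to 3.14 in the ligaments. On the ligament side the tissues overlapped, at 5.47 to 5.99 in capsules and 5.80 to 6.27 in ligaments. With the genes called at 4 months in place of the young ones, the difference was 4.51 (exact permutation p = 0.0179). In young dogs the index, computed over all 32 libraries, ran from -0.649 to 1.11 in capsules and -3.75 to -3.19 in ligaments, a description, since these libraries chose the genes. The 5 control capsules on that scale ran from -2.03 to -0.175, with 4 of them below every young capsule.

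The place of ligament replicate 3 between the tissues differed with the size and direction of the difference. For each library, the genes that differed between the remaining libraries at an unadjusted p under 0.05 were taken, and its level was placed on a scale from 0 at the mean of its own group to 1 at the mean of the other tissue. The remaining libraries chose the genes and also set both ends of this scale. A left-out library can therefore be expected to lie away from 0, more so for small differences. The positions are a description, to be read against those of the other libraries. Over genes less than 2-fold higher in capsule, ligament replicate 3 had a median position of 1.03 (768 genes). Over genes 2-fold to 4-fold higher it was 0.99 (872 genes). Over genes 4-fold to 16-fold higher it stood at 0.83 (210 genes), and over the 80 genes at least 16-fold higher at 0.00. Ligament replicates 1 and 2 stood at 0.20 and 0.17 in the first class and at 0.00 and 0.02 in the last. In the 2-fold to 4-fold class they stood at 0.47 and 0.21, and in the 4-fold to 16-fold class at 0.47 and 0.06. Over genes higher in ligament by less than 2-fold, the position of ligament replicate 3 was 0.94 (1189 genes), against 0.29 and 0.05 for the other ligaments. Over genes higher in ligament by 2-fold to 4-fold it was 0.79 (220 genes), against 0.56 and 0.17 for ligament replicates 1 and 2. By 4-fold to 16-fold it was 0.46 (23 genes), against 0.43 and 0.29. Over the 5 genes at least 16-fold higher in ligament it was also 0.46, against -0.485 and -0.02 for the others (3 genes each). Ligament replicate 3 was thus near the capsules for genes with small differences. For the ligament genes of 4-fold or more it lay between the tissues, and up to 16-fold so did ligament replicate 1. For the capsule genes with the largest differences, ligament replicate 3 was at the level of the other ligaments. Without it, 3367 of the genes tested with all 8 libraries passed an unadjusted p under 0.05, against 721 to 1938 without any other library. Over such genes of all sizes and both directions, its median position was 0.94. Capsule replicates 3 and 2 followed at 0.58 and 0.45, and the other libraries stood at 0.0079 to 0.285.

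**Figure D5:**
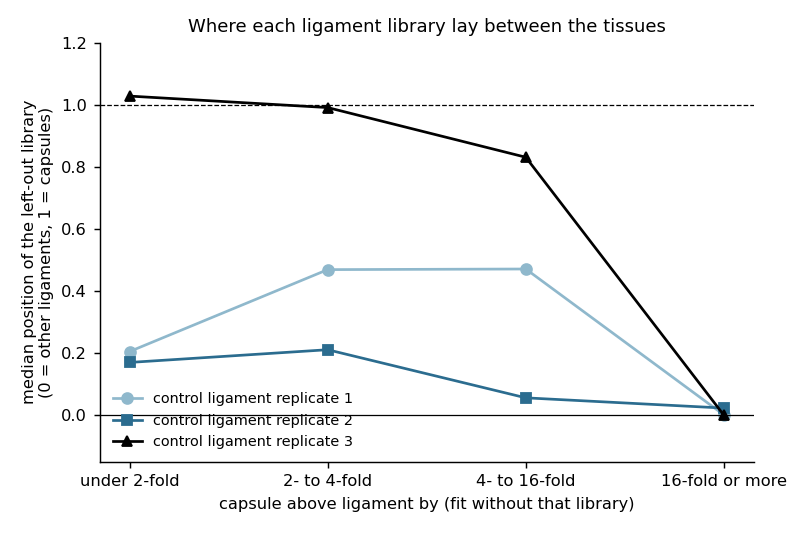
Median position of each left-out control ligament between the mean of the other ligaments (0) and the mean of the capsules (1), for genes higher in capsule by the fold given on the x axis in a fit without that library. Ligament replicate 3 runs from 1.03 over genes under 2-fold to 0.00 over genes of 16-fold or more. The remaining libraries chose the genes and set both ends of the scale.

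Relative gene length differed between the genes of either direction. Over all genes tested, the Spearman correlation of the log2 difference with length was 0.0873, a description across genes, which are not independent replicates. Taking the median tested gene as 1, the 775 genes higher in capsule at an unadjusted p under 0.05, the 125 shared genes aside, had a median length of 1.33. The 688 genes lower in capsule had a median of 0.82. The longest 25% of genes tested took 53.4% to 57.6% of fragments in the capsules and 49.9% to 53.5% in the ligaments. The part of length in these differences was not tested. Without ligament replicate 3 the medians were 1.25 over 1842 capsule genes and 1.00 over 1437 ligament genes, and the 106 tested genes of the shared capsule list had a median of 1.24.

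The most abundant genes were largely the same in both tissues. By mean CPM, 9 of the 10 most abundant genes of the capsules were among the 10 of the ligaments, and 82 of the top 100 were shared, 82% of each list. Of the 118 genes in either top 100, 14 had a log2 difference of at least 1 and 18 had groups that did not overlap. Over all 12835 genes tested, 836 had such a difference. All capsules lay above all ligaments in 446 of the 12835 and below in 352. Both traits were thus more frequent among the abundant genes than among all genes tested. Genes in only 1 of the 2 top lists entered through the tissue where they are high. That choice favours both traits, so the comparison is a description. The 10 highest genes of each library, ranked within that library, held more of the fragments in capsules than in ligaments. Their share was 20.6%, 18.7%, 20.4%, 25.3% and 20.6% in capsules 1 to 5 and 16.9%, 12.9% and 17.99% in ligaments 1 to 3. The groups did not overlap, with a difference of 5.17 percentage points (means 21.1% ± 2.45, n = 5, and 15.9% ± 2.68, SD, n = 3; exact permutation p = 0.0179, adjusted over 3 tests 0.0536). In capsules 3 and 5 these values include the gene that supplied most fragments of the 125 shared capsule genes. The 125 took 9.16% and 11.3% of those libraries, and 3.70% and 3.56% without that gene. Without ligament replicate 2 the difference in the 10-gene share was 3.65 percentage points (exact permutation p = 0.19). At 2857235 fragments per library, 15410 ± 216 genes were detected in capsules (SD, n = 5) and 15163 ± 310 in ligaments (n = 3), which did not differ beyond the spread (exact permutation p = 0.196).

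The dog that gave both tissues allowed 1 comparison free of differences between dogs. Of the 405 young capsule genes tested, 350 (86.4%) were higher in its capsule, where 51.5% of all genes tested were. Of the 276 young ligament genes, 184 (66.7%) were higher in its ligament, against 48.5% of all genes. Its capsule gave 9.16% of fragments to the 125 shared capsule genes and its ligament 0.136%. For ENSCAFG00000015412 its capsule and ligament stood at 19.4 and 6.05 CPM, for ENSCAFG00000002234 at 0.845 and 7.52 CPM, and for ENSCAFG00000007857 at 3.38 and 16.3 CPM. These genes were chosen for groups that do not overlap, which fixes their direction within the dog, so the values are a description. With 1 dog there is no test. Its ligament held the highest share of the 125 genes among the 3 control ligaments.

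The tissue difference of controls was then tested against that of young dogs and of affected dogs. The first interaction called 5 of 13548 genes (0.0369%) with edgeR, all with a tissue difference that was more positive in controls. One was ENSCAFG00000015412, which was lower in capsule than in ligament in young dogs, at 9.48 ± 4.98 CPM (SD, n = 6) and 17.3 ± 2.15 CPM (n = 4). The young values overlapped (4.20 to 18.4 CPM in capsule and 15.2 to 19.4 CPM in ligament), and their difference of -0.86 did not pass the test (SE 0.31, edgeR adjusted p = 0.137). The interaction was 3.34 (SE 0.55, edgeR adjusted p = 0.0352). In the 4-month dogs its levels were 17.7 ± 9.20 and 13.1 ± 6.56 CPM (SD, n = 3 each). For ENSCAFG00000024064 the interaction was 4.92 (SE 1.33) but did not pass the test (edgeR adjusted p = 0.207).

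Of 772 genes called in young dogs and tested in this interaction, 313 (40.5%) had an unadjusted interaction p under 0.05, against 15.2% of all genes. In all 313 the tissue difference of controls was shifted against the direction in young dogs, that is, smaller or reversed. The genes were chosen for their difference in the young libraries, which enter this interaction, so the count is a description. Without ligament replicate 3 the interaction called 715 genes, and without any other single library it called between 0 and 7. The second interaction, with affected dogs, called 0 of 13606 genes (0%) with edgeR, where 290 had an unadjusted p below 0.05. DESeq2 also called 0. In both interactions all libraries entered as independent, including those of dogs that gave both tissues. Age class differs between controls and affected dogs too, and the 2 cannot be told apart in that term.

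Taken the other way, genes that differed in controls at an unadjusted p under 0.05 were followed in the other dogs. Of the 875 higher in control capsule, 819 were tested in young dogs and 506 (61.8%) were higher there too, against 49.4% of all genes. At 4 months 684 of 844 (81%) were, against 46.4%. Of the 688 higher in control ligament, 438 of 674 (65%) were higher in young ligament, against 50.6%, and 610 of 682 (89.4%) at 4 months, against 53.6%. In young dogs 171 of the 819 capsule genes and 42 of the 674 ligament genes were called in the same direction (20.9% and 6.23%, against 3.84% and 2.25% of all genes), and 7 and 3 in the opposite one. At 4 months 116 of the 844 capsule genes (13.7%) and 4 of the 682 ligament genes (0.587%) were called in the same direction, against 1.23% and 0.0765% of all genes, and 0 in the opposite one.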

How the data were processed

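RNA sequencing of 8 control libraries (5 capsules, 3 ligaments) was analysed from the table of all samples. The submitters' processing notes name Cuffdiff 2.2.1, TopHat2 2.0.13, Bowtie2 2.2 and cutadapt 1.8, and the canFam3 build. What each tool did, the annotation release and the strand setting were not given in these sources. The table's columns, per the file headers, hold an estimated count of fragments, a scaled fragment signal and FPKM, all deposited by the authors per gene and library. The deposited estimated counts were whole except for 0.316% of control values (tolerance 1e-06) and were rounded. The authors' FPKM was used for an alternative and, with the deposited scaled signal, for relative length. In the controls 3 values had the status FAIL and were kept.

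Counts were tested with edgeR 4.0.16 in R 4.3.3 (filterByExpr, TMM, robust quasi-likelihood F test, Benjamini-Hochberg, adjusted p under 0.05); standard errors come from the F statistic. CPM uses the TMM factors of its own comparison, and index and correlations use log2 CPM with a prior count of 2. Each comparison was fitted on its own groups, without a block except for the dog at 4 months. DESeq2 1.42.0 and limma 3.58.1 served as alternatives. The scripts were tested on simulated data. Exact permutation tests were two-sided. The samples, lists and tests were chosen with earlier results of these data known. The named genes followed a rule: 2 per direction without overlap, averaging 5 CPM or more in the higher tissue and passing the adjusted threshold, filled by lowest p where none passed. ENSCAFG00000017522, ENSCAFG00000018284 and ENSCAFG00000012374 were added by their difference in young dogs among genes also called at 4 months. Gene lists by symbol could not be applied. Genes with near-identical copies could not be recognised. Intervals have a confidence of 0.95 and cover counting error only. No pair of control libraries agreed to within sampling noise (lowest chi-square per gene 16.7, where counting noise alone gives about 1).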

Additional observations from a re-analysis of the deposited data

Results flagged for a closer look

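Among the 5 control capsules, replicate 4 gave 25.3% of its fragments to its own 10 most abundant genes. The gap of this value to the next capsule was large for the range of the group (18.7% to 25.3%). In all, 21 groups of values were examined in this way, of which chance picks about 1 in 20.

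The tissue difference of ENSCAFG00000015412 differed between controls and young dogs by 3.34 on the log2 scale (SE 0.55, edgeR adjusted p = 0.0352), higher in all 5 control capsules than in all 3 control ligaments. In all, 5 genes had a tissue difference that differed between controls and young dogs by this interaction test. The calls rest on single libraries: without control capsule replicate 1, 3 or 4, control ligament replicate 2, or any of 6 young libraries (capsules 1, 5 and 6, ligaments 2, 3 and 4) the interaction called 0 genes.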

How the results depend on the processing

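The edgeR count of 0 for the controls became 259 with DESeq2, 146 in the fit across all groups, 8 with no filter on low counts, 2 with limma on log2(FPKM + 1) and 0 to 33 with 1 library left out (33 without ligament replicate 3). It remained 0 with DESeq2 size factors in edgeR, upper quartile scaling, a mean of at least 1 CPM, voom quality weights, and without both libraries of the shared dog. With the replicate number as a block the control count was 6, and same-numbered deviations correlated at -0.25, 0.25 and -0.38, so the numbers do not pair these libraries. Limma with the dog as a random effect was not run for the controls, since no correlation could be estimated from 1 dog with 2 libraries. The young count of 778 became 1270 with DESeq2, 1505 with the dog as a random effect and 387 to 875 with 1 library left out. The 4-month count of 171 became 314 with DESeq2 and 123 to 382 with 1 library left out. The interaction with young dogs, 5 genes, became 104 with DESeq2 and 0 to 715 with 1 library left out, and that with affected dogs stayed at 0 in all 19 such fits. The 4 genes of lowest p kept their direction in all 18 alternatives, with adjusted p from 7.1e-07 to 0.512. They were chosen for groups that do not overlap, which largely fixes their direction, so its constancy is a description.

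The difference in the 10-gene share was 5.84 percentage points without the shared dog (exact permutation p = 0.0667). It was 3.65 to 6.19 with 1 library left out (exact permutation p from 0.0286 to 0.19). The index difference was 1.31 without that dog (exact permutation p = 0.0667). With 1 library left out it was 1.24 to 1.70 (exact permutation p from 0.0286 to 0.0952). The counts of followed genes with 1 library left out were chosen after seeing the data: 124 to 125 of the 125 had a higher capsule mean, 92 to 105 were separated, and the young lists gave 382 to 424 and 138 to 198. The cause of each change was not tested.

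With 3 ligaments, of which 1 lay near the capsules for small differences, a gene missing the threshold is not shown to be equal in the tissues. Genes with few fragments, such as ENSCAFG00000024064 with 4 in all ligaments, carry wide counting intervals.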
